A study of Homo sapiens with 56 samples.

Results

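The genes described here are PROM1, CD44, CD24, ALDH1A3, ALDH1A1, CRABP2, RARB and RARRES1, which are stem cell markers and genes of the retinoid pathway, in the ovarian cancer lines PEO4 and PEO1. They were taken as every probe set whose array annotation gave one of these symbols, which found 26 of 22215 probe sets and 8 of 11963 genes. The genes had been chosen by their measured levels, which differ between the lines, so those levels are given as a description without a test, and tests are given only for treatments within a line and for the difference of a treatment response between lines. CD44 had 8 probe sets, CD24 had 6, RARB had 5, RARRES1 had 3, and PROM1, ALDH1A3, ALDH1A1 and CRABP2 had 1 each.

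PEO4 and PEO1 are established lines of high-grade serous ovarian cancer that came from the same patient, PEO4 after and PEO1 before resistance to platinum had arisen. Each is a single line, so a difference between them is a difference between these cultures. All cells had been deprived of hormone for 3 days in medium with charcoal-stripped serum. The groups of each line were 4-hydroxytamoxifen (4OHT) with estradiol (E2), 4OHT, fulvestrant (ICI) with E2, ICI, E2 and ethanol vehicle, all taken after 3 h, and untreated cells at 0 h. Doses were 1 µM for 4OHT, 1 µM for ICI and 1 nM for E2. This gave 14 groups of 4 Affymetrix arrays, 28 arrays in each line.

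PROM1 encodes prominin-1 (CD133), a protein of membrane protrusions, CD44 encodes the main hyaluronan receptor, and CD24 encodes a small glycosylated surface protein. All have been used to sort stem-like cells from ovarian and other carcinomas, as has the activity of aldehyde dehydrogenases. ALDH1A1 and ALDH1A3 are among the enzymes of that class that oxidise retinaldehyde to retinoic acid. CRABP2 carries retinoic acid to the nucleus, where retinoic acid receptors such as RARB, paired with a retinoid X receptor, bind direct repeats in DNA. RARB is itself a target of these receptors, and RARRES1 was found as a gene raised by a synthetic retinoid in skin.

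Promoters are shown for RARB because its level moved in time in PEO1, for ALDH1A3 and CD44 because they moved with 4OHT, and for RARRES1 because it stands beside RARB as a retinoid-responsive gene with a large gap between the lines. All 8 genes matched the RefSeq promoter set (GRCh38.p14), with 16 promoters of 300 bases, 250 before and 50 after each start. They were searched on both strands for the half-site AGGTCA, for the inverted-repeat estrogen response element, for TGANTCA, and for the retinoic acid receptor direct repeat with a spacer of 5 bases. RARB had 4 promoters, and 1 of them held the direct repeat, whose first base lies 53 bases before the start. It is shown with the repeat in capitals, read on the plus strand of chr3:25428013-25428312.
RARB promoter: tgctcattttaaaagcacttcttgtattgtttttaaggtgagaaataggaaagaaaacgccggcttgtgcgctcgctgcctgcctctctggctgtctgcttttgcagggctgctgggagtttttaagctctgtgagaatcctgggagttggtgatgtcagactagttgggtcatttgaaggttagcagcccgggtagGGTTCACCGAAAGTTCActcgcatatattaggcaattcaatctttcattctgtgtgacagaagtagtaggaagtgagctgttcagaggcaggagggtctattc
The direct repeat was found in 1 of the 16 promoters and in 31 of 35116 promoters overall (0.0883%). The CD44 promoter on the plus strand of chr11:35138921-35139220 held AGGTCA, here in capitals, as did 13.8% of all promoters.
CD44 promoter: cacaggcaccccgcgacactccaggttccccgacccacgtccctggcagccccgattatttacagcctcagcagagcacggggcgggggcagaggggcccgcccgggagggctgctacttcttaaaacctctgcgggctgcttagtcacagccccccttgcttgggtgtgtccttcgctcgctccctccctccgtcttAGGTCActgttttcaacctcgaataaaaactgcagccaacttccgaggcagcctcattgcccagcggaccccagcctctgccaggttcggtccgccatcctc
The ALDH1A3 promoter on the plus strand of chr15:100879581-100879880 and the RARRES1 promoter on the minus strand of chr3:158732408-158732707 held none of the 4 motifs in this window.
ALDH1A3 promoter: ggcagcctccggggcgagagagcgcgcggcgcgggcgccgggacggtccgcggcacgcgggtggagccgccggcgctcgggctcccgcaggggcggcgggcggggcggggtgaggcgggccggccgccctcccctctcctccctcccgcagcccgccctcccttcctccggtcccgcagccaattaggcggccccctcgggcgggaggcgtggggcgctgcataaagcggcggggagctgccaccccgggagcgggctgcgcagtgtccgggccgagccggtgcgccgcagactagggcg
RARRES1 promoter: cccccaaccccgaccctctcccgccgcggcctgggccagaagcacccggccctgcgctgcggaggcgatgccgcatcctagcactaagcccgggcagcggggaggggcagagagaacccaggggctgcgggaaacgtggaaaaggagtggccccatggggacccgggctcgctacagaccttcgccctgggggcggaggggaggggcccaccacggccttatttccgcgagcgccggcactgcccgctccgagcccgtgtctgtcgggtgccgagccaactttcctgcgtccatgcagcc
The ALDH1A3 window was 81.7% G and C with 46 CpG sites, the RARRES1 window 72.0% with 28, the CD44 window 63.3% with 18 and the RARB window 46.7% with 7. The estrogen response element was in 0 of the 16 promoters and in 0.057% of all. TGANTCA was in 1 of the 16, a PROM1 promoter, and in 7.71% of all.

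Deposited array medians lay between 7.84 and 7.91 (log2) in PEO4 and between 7.40 and 7.48 in PEO1, so the lines were set on a common scale by quantile normalization of the 56 arrays before levels were compared. Replicate arrays correlated at 0.9886 or higher and 0 pairs held identical values. The 3′ signal of actin minus its 5′ signal, which grows as RNA is degraded or copied short, was 3.41 in PEO4 ICI replicate 1, 2.28 in PEO4 0 h replicate 4, 1.74 in PEO4 4OHT with E2 replicate 4, between 0.24 and 1.07 in the other PEO4 arrays and between -0.25 and 0.14 in PEO1. Line, array batch, normalization run and RNA quality cannot be told apart. Of the 7 epithelial markers measured, MUC1 was the lowest (7.44 in PEO4 and 7.94 in PEO1). The others were high, from 11.47 (KRT7) to 13.51 in PEO4 and from 11.76 (CDH1) to 13.85 in PEO1. PAX8 (11.70 in PEO4 and 11.21 in PEO1) and WT1 (12.48 in PEO4 and 11.71 in PEO1) were also high, while SOX17 was low (4.38 in PEO4 and 4.17 in PEO1). The 4 leukocyte markers lay between 4.01 and 7.17 in PEO4 and between 3.40 and 7.18 in PEO1, PTPRC being the lowest and CD3E the highest, and the 5 endothelial markers between 4.46 and 6.85 in PEO4 and between 4.26 and 6.37 in PEO1. The 5 fibroblast markers lay between 6 and 8.19 in PEO4 and between 2.71 and 8.51 in PEO1, and the mesothelial markers were CALB2 (5.58 in PEO4 and 7.35 in PEO1) and UPK3B (9.19 in PEO4 and 7.98 in PEO1). Their part in the line levels was not tested.

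Of the 26 probe sets, 13 were at least 4-fold lower in PEO4 than in PEO1 vehicle cells and 0 were at least 4-fold higher, where 1.16% and 1.04% of all probe sets (2.2% together) passed these limits. Those 13 belonged to PROM1, RARRES1, ALDH1A3, CD44 and CD24. The 28 PEO4 and 28 PEO1 arrays did not overlap for 22 of the 26, as for 34.3% of all probe sets; 21 were lower in PEO4 (16.6% of all) and 1 was higher (17.7% of all). The median difference was -2.13 over the 26 and -0.014 over all. The genes were chosen for these levels, so nothing is read from the counts.

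PROM1 had the largest fall of all 22215 probe sets. Its level was 4.72, 4.87, 4.65 and 4.60 in the PEO4 vehicle arrays, against 12.88, 12.84, 12.88 and 12.93 in the PEO1 vehicle arrays, on the jointly normalized log2 scale. Over all 28 arrays the lowest, median and highest values were 4.11, 4.43 and 4.87 in PEO4, against 12.73, 12.84 and 12.93 in PEO1. PROM1 therefore stood near the bottom of the array scale in every PEO4 array (the 10.5th percentile in vehicle) and near its top in PEO1 (the 98.4th). The difference of the vehicle means was -8.17, a 288-fold lower signal, in which the low end is limited by array background. In bulk RNA, fewer cells with the transcript and less of it in each cell cannot be told apart.

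CD44 was lower in PEO4 by every one of its probe sets. For 212063_at, the brightest, the level was 8.91, 9.04, 8.95 and 8.92 in PEO4 vehicle, against 12.27, 12.27, 12.30 and 12.29 in PEO1 vehicle. This is a difference of -3.33, a 10.0-fold lower signal, in cells whose CD44 signal was still at the 67.6th percentile of the PEO4 arrays. Differences of the other CD44 probe sets ran between -3.70 (217523_at) and -3.04 (204489_s_at), except 216056_at at -1.24, which was dim in both lines (5.16 ± 0.12 in PEO4 and 6.39 ± 0.08 in PEO1, SD, n = 4). CD44 has many splice forms, and the probe sets do not all read the same ones.

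CD24 was bright in both lines and lower in PEO4. By 209771_x_at its vehicle level was 12.38 ± 0.04 in PEO4 and 13.38 ± 0.02 in PEO1 (SD, n = 4), a 2.00-fold lower signal, while 209772_s_at read 9.31 ± 0.19 in PEO4 and 11.94 ± 0.04 in PEO1, a 6.22-fold lower signal. The other 4 probe sets lay between -1.61 and -0.99. CD24 has near-identical copies in the genome that 3' array probes may share, so the size is uncertain, and 209771_x_at stood at percentile 97.1 of the PEO4 and 99.2 of the PEO1 arrays, where array signal flattens.

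**Figure D1:**
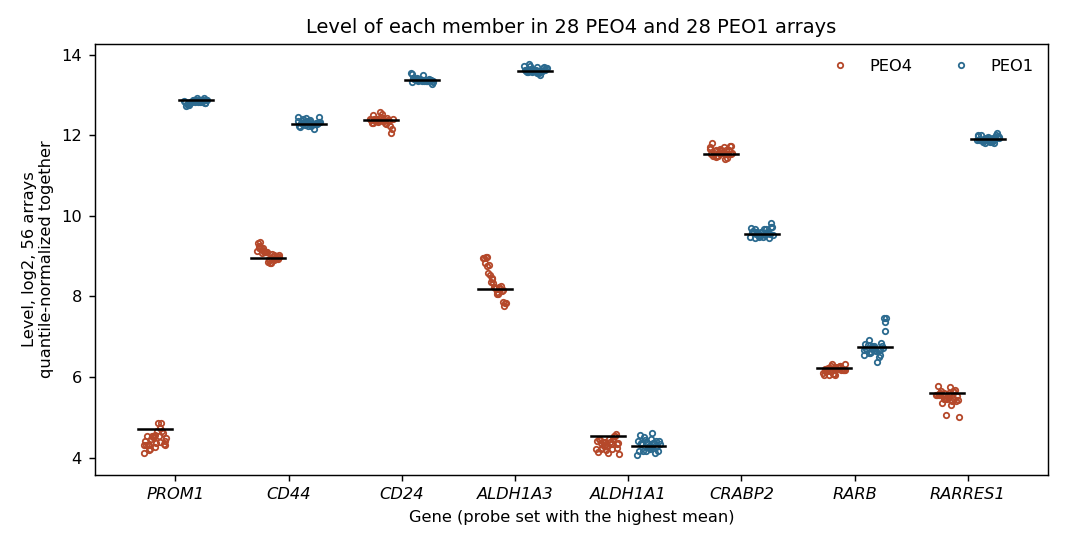
Level (log2, 56 arrays quantile-normalized together) of the brightest probe set of each gene in 28 PEO4 arrays (left of each pair) and 28 PEO1 arrays (right), with points running left to right from 4OHT with E2 to 0 h and a black line at the vehicle mean. PROM1 lies between 4.11 and 4.87 in PEO4 and between 12.73 and 12.93 in PEO1, ALDH1A1 is low in both lines, and CRABP2 is the gene that is higher in PEO4 in all arrays.

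ALDH1A3 and ALDH1A1 differed in how they stood in the lines. ALDH1A3 was 8.19, 8.26, 8.14 and 8.16 in PEO4 vehicle, against 13.59, 13.59, 13.61 and 13.67 in PEO1 vehicle. Its signal was 43-fold lower in PEO4 (-5.43), the seventh largest fall of all probe sets, and in PEO1 it reached the 99.5th percentile of the array. ALDH1A1, the form most often named with stem-like cells, was at 4.53 ± 0.05 in PEO4 and 4.29 ± 0.13 in PEO1 (SD, n = 4), at percentile 9.16 of the PEO4 and 7.54 of the PEO1 arrays. The ALDH1A1 arrays of the lines overlapped, and its difference of 0.24 in vehicle arrays was -0.04 in 0 h arrays. In the list of the aldehyde dehydrogenase family (17 of 18 genes measured), ALDH1A3 was the 1 gene at least 4-fold lower in PEO4. ALDH3B2 (2.66), ALDH3A1 (2.22) and ALDH3B1 (2.08), which oxidise other aldehydes, were the 3 at least 4-fold higher, against 1.28% lower and 1.11% higher over all genes. The median of the list was 0.17 and that of all genes -0.012.

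CRABP2 ran the other way. It was 11.54, 11.44, 11.54 and 11.63 in PEO4 vehicle, against 9.60, 9.58, 9.45 and 9.55 in PEO1 vehicle, a 3.98-fold higher signal that falls just short of the 4-fold limit. Over 28 arrays each it lay between 11.41 and 11.82 in PEO4 and between 9.45 and 9.83 in PEO1, with no overlap.

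RARRES1 was also far lower in PEO4. By 206392_s_at it was 5.64, 5.45, 5.63 and 5.69 in PEO4 vehicle, against 11.80, 11.89, 11.90 and 12.01 in PEO1 vehicle, a 78.8-fold lower signal. The probe set 221872_at gave an 85.9-fold and 206391_at an 18.3-fold lower signal, and 206392_s_at and 221872_at gave the fourth and the third largest falls of all probe sets. In PEO4 these 2 stood at percentiles 19.7 and 18.5 of the array, near array background, which limits how low a level can read and so the fold.

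RARB was dim in both lines. By 205080_at it was 6.23 ± 0.05 in PEO4 vehicle and 6.75 ± 0.08 in PEO1 vehicle (SD, n = 4), a 1.43-fold lower signal, and by 208530_s_at it was 1.80-fold lower. The arrays of the lines did not overlap for these 2 probe sets and overlapped for 208412_s_at, 217020_at and 208413_at, whose differences were 0.03, 0.14 and 0.23. At 0 h the RARB gap by 205080_at was wider, -1.14, since RARB in PEO1 was higher at 0 h than at 3 h.

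**Figure D2:**
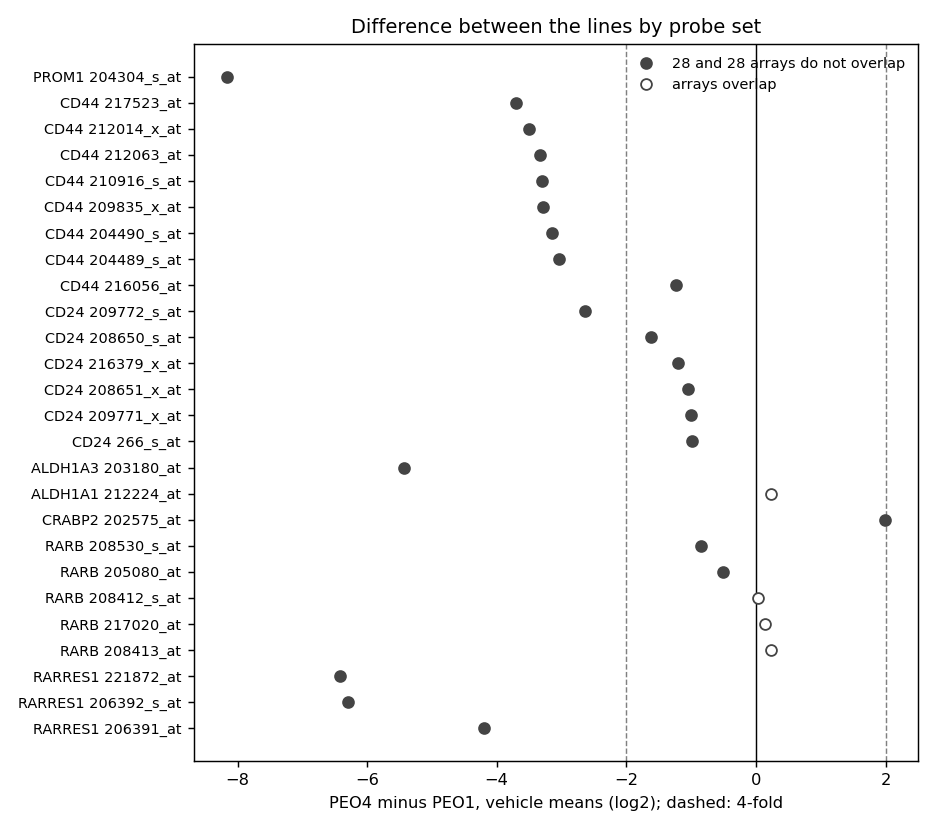
PEO4 minus PEO1 difference of vehicle means (log2, x axis) for each of the 26 probe sets (y axis), filled where the 28 arrays of each line do not overlap and open where they do, with dashed lines at 4-fold. PROM1 lies at -8.17, the RARRES1 probe sets between -6.42 and -4.19, 7 CD44 probe sets between -3.70 and -3.04, and CRABP2 at 1.99.

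Other genes of the gene lists, which were chosen with earlier results of these data known, were set beside these. Of the retinoid pathway list, 23 of 32 genes were measured, 2 were at least 4-fold lower in PEO4 (ALDH1A3, chosen for its level, and DHRS3) and 0 at least 4-fold higher, with a median of 0.13, against 1.28% lower and 1.11% higher over all genes. Without the chosen genes 1 of 19 was lower. DHRS3, which turns retinaldehyde back to retinol and is raised by retinoic acid in many cells, was at 7.32 ± 0.28 in PEO4 and 9.49 ± 0.04 in PEO1 (SD, n = 4). STRA6, the membrane receptor that takes up retinol, was at 7.16 ± 0.08 in PEO4 and 9.04 ± 0.08 in PEO1, a difference of -1.87. The largest differences the other way in this list were those of CRABP2 (1.99), BCO1 (0.99) and RXRB (0.84). Of the retinoic acid responsive list, 15 of 20 genes were measured, 3 were at least 4-fold lower in PEO4 (RARRES1, TGM2 at -2.44 and DHRS3 at -2.17) and 1 was at least 4-fold higher (RARRES2, which encodes chemerin, at 2.32), with a median of -0.51. Without RARRES1 and the other chosen genes, 2 of 12 were at least 4-fold lower and 1 higher, against the same 1.28% and 1.11% of all genes. Of the stem cell marker list, 28 of 31 genes were measured and 4 were at least 4-fold lower (PROM1, ALDH1A3, CD44 and CXCR4), with a median of -0.29. The first 3 of these were chosen for their levels, and without the chosen genes 1 of 23 was lower (1.28% of all genes), with a median of -0.02. CXCR4, a chemokine receptor named here after its value was seen, differed by -2.60. Highest in PEO4 relative to PEO1 in this list were NOTCH3 (0.82), ALCAM (0.77) and DCLK1 (0.72). Of the CD44 partners, 14 of 18 were measured and 1, the hyaluronan synthase HAS2, was at least 4-fold lower (-2.39), with a median of 0.09. Those highest in PEO4 relative to PEO1 were TIAM1 (1), MMP14 (0.74) and ADAM17 (0.52).

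Within a line, the treatments were tested with limma across all probe sets, and a probe set was called where its Benjamini-Hochberg adjusted p was under 0.05. Over 8 comparisons, 18 of 208 pairs of a probe set and a comparison were called in PEO4 (16 higher and 2 lower), where 2.6% of all such pairs were called, and 6 of 208 in PEO1 (3 higher and 3 lower), where 3.55% of all were. The PEO1 count is near the share of all probe sets. In PEO4 the called pairs belonged to ALDH1A3, CD44, PROM1, CD24 and ALDH1A1, and in PEO1 to CD44 and RARB. Most of those in PEO4 were of the single ALDH1A3 probe set or of CD44 probe sets. The comparisons share arrays and several probe sets share a gene. The pairs are therefore not independent, and no excess over all probe sets is read from their count. All values below are on the deposited log2 scale, on which each line has its own range.

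**Figure D3:**
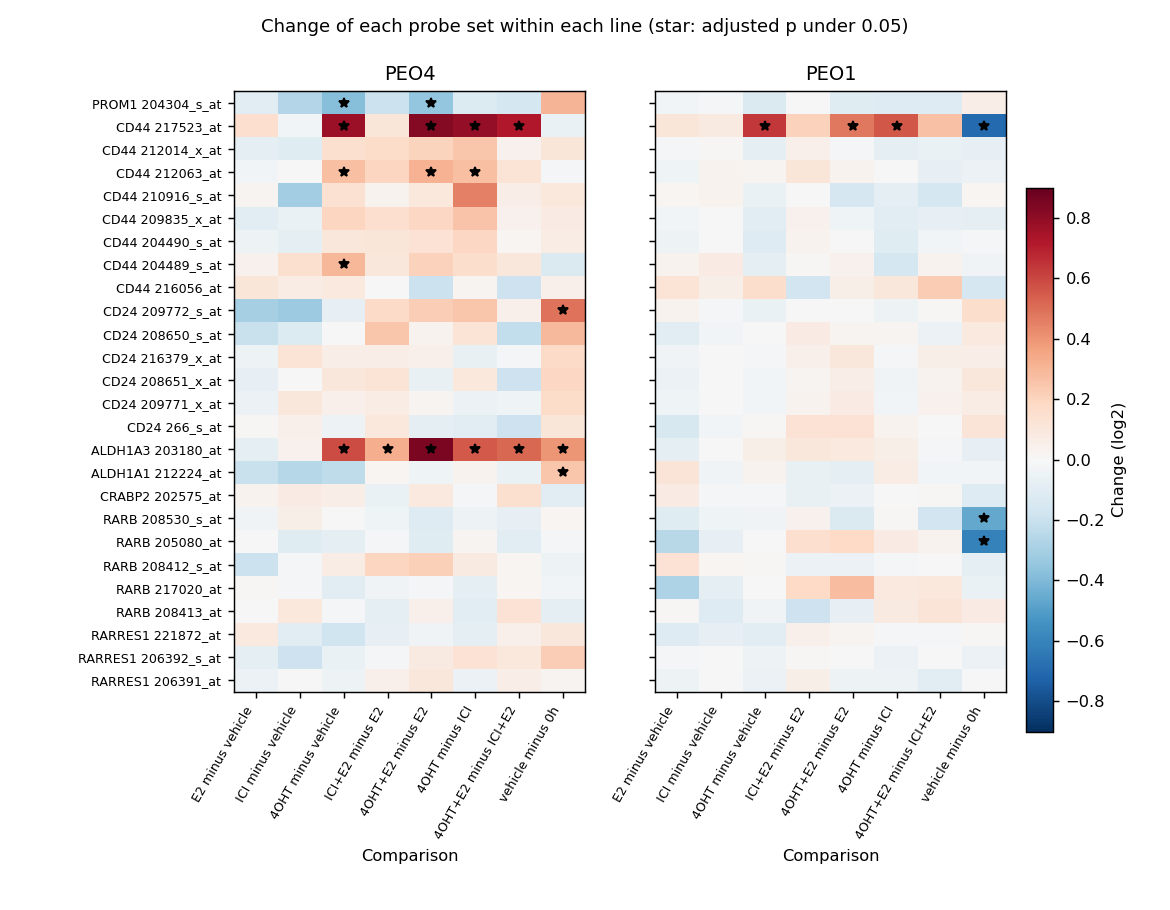
Change (log2, colour) of the 26 probe sets (rows) in 8 comparisons (columns) within PEO4 (left) and PEO1 (right), with a star where the adjusted p was under 0.05. In PEO4 the stars lie mainly on ALDH1A3, CD44 and PROM1, and in PEO1 on CD44 217523_at and on RARB at vehicle against 0 h.

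E2 alone gave no call among the 26 probe sets. After 3 h of E2 against vehicle, limma called 0 of 26 in PEO4, where 1.44% of all probe sets were called, and 0 of 26 in PEO1, where 1.5% were. At an unadjusted p under 0.05 there were 2 of 26 in PEO4 and 3 of 26 in PEO1. The change farthest from 0 was -0.30 for CD24 209772_s_at in PEO4 (95% interval -0.54 to -0.05, adjusted p = 0.414), and -0.28 for RARB 217020_at in PEO1 (-0.50 to -0.05, adjusted p = 0.32). The CD24 change in PEO4 passed with array weights (-0.30, adjusted p = 0.0417) and without PEO4 0 h replicate 4 and ICI replicate 1, the arrays with the highest actin ratios (adjusted p = 0.0345). RARB 205080_at was 6.29 ± 0.10 with E2 and 6.54 ± 0.08 with vehicle in PEO1 (SD, n = 4), a change of -0.25 (adjusted p = 0.138).

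ICI alone gave the same count. It called 0 of 26 in PEO4 (0.0765% of all probe sets) and 0 of 26 in PEO1 (0.0585%), with 6 in PEO4 and 0 in PEO1 at an unadjusted p under 0.05. The change farthest from 0 was -0.33 for CD24 209772_s_at in PEO4 (95% interval -0.57 to -0.08, adjusted p = 0.161), and it was -0.17 (-0.38 to 0.04) without ICI replicate 1, the array with the highest actin ratio. With array weights 4 of the 26 passed in PEO4: ALDH1A1 (-0.35, adjusted p = 0.00104), PROM1 (-0.38, 0.00359), RARB 205080_at (-0.13, 0.0216) and CD24 209771_x_at (0.13, 0.0336). ALDH1A1 also passed without ICI replicate 4 (-0.31, adjusted p = 0.0211). In PEO1 the ICI change farthest from 0 was -0.12 for RARB 208413_at (95% interval -0.28 to 0.05). The test of the difference between PEO4 and PEO1 called 0 of 26 for E2 (0.32% of all), for ICI (0.063% of all) and for ICI with E2 against E2 (0.293% of all), with 5, 2 and 1 at an unadjusted p under 0.05. With array weights PROM1 passed for ICI (-0.36, adjusted p = 0.0173).

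4OHT alone raised ALDH1A3 in PEO4. It was 9.26, 8.99, 8.83 and 9.01 with 4OHT, against 8.43, 8.52, 8.37 and 8.41 with vehicle, and every 4OHT array lay above every vehicle array. The change was 0.59 ± 0.07 (SE, limma adjusted p = 2.65e-06). In PEO1 it was 13.54, 13.41, 13.70 and 13.68 with 4OHT, against 13.48, 13.48, 13.57 and 13.59 with vehicle, and these groups overlapped. That change was 0.05 (95% interval -0.06 to 0.16, adjusted p = 0.677), and the difference of the responses between PEO4 and PEO1 was 0.54 ± 0.09 (SE, adjusted p = 2e-04). ALDH1A3 lies at the 99.5th percentile of the PEO1 arrays, where array signal flattens, and the part of this in the missing PEO1 change was not tested.

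Added to E2, 4OHT also raised ALDH1A3 in PEO4. It was 9.19, 9.21, 9.12 and 9.27 with 4OHT and E2, against 8.28, 8.38, 8.27 and 8.48 with E2, with no overlap. The change was 0.85 ± 0.07 (adjusted p = 1.57e-09), in arrays that the comparison of 4OHT with vehicle did not use. In PEO1 the change was 0.09 (95% interval -0.03 to 0.20), and the responses differed by 0.76 ± 0.09 (adjusted p = 3.07e-08). ICI added to E2 also raised ALDH1A3 in PEO4, to 8.76, 8.59, 8.69 and 8.68 with ICI and E2, against the E2 values just given. That change of 0.33 ± 0.07 (adjusted p = 0.00678) was the 1 call among the 26 in this comparison, where 1.44% of all probe sets were called. In PEO1 ICI with E2 against E2 called 0 of 26 (1.88% of all, and 1 of 26 at an unadjusted p under 0.05), with ALDH1A3 at 0.10 (95% interval -0.01 to 0.21). The difference between the lines was 0.23 and did not pass (adjusted p = 0.501).

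The antagonists differed in what they did to ALDH1A3 in PEO4 at the same dose and time. With no E2 present it averaged 9.02 ± 0.18 with 4OHT and 8.47 ± 0.08 with ICI (SD, n = 4), a difference of 0.55 ± 0.07 (SE, adjusted p = 1.09e-05). With E2 present it averaged 9.20 ± 0.06 with 4OHT and 8.68 ± 0.07 with ICI, a difference of 0.52 ± 0.07 (adjusted p = 9.51e-06). Among the 26 probe sets, 4OHT against ICI called 3 in PEO4 (1.56% of all) and 1 in PEO1 (2.39% of all). With E2 present, 2 were called in PEO4 (3.21% of all) and 0 in PEO1 (2.71% of all, and 3 of 26 at an unadjusted p under 0.05). In PEO1 the ALDH1A3 difference between 4OHT and ICI was 0.05 (95% interval -0.06 to 0.17) without E2 and -0.02 (-0.13 to 0.10) with it.

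CD44 was also higher with 4OHT in PEO4. Of the 26 probe sets, 4OHT against vehicle called 5 in PEO4, where 3.93% of all were called. They were 4 higher (2.08% of all), of which 3 were CD44 probe sets, and 1 lower (1.85% of all). By 212063_at CD44 was 9.64, 9.45, 9.35 and 9.45 with 4OHT, against 9.15, 9.30, 9.19 and 9.16 with vehicle, with no overlap. The change was 0.27 ± 0.07 (adjusted p = 0.0149), and 204489_s_at changed by 0.30 ± 0.07 (adjusted p = 0.0129). Without 4OHT replicate 1, the highest of its group, these were 0.22 (adjusted p = 0.0665) and 0.25 (0.0559) and no longer passed. All 8 CD44 probe sets lay above 0 in this comparison, from 0.09 to 0.77.

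With E2 present, 4OHT called 4 of the 26 in PEO4, where 4.25% of all were called, 3 higher (2.72%) and 1 lower (1.53%). CD44 212063_at was 9.36, 9.60, 9.48 and 9.53 with 4OHT and E2, against 9.09, 9.12, 9.29 and 9.22 with E2, again with no overlap. This change of 0.31 ± 0.07 (adjusted p = 0.00323) was called in each alternative. With no E2 present, 212063_at was higher with 4OHT than with ICI by 0.27 ± 0.07 (adjusted p = 0.0278). Leaving out any of ICI replicates 2 or 3 or 4OHT replicates 1, 2 or 4 ended that call. The values were then 0.21 to 0.28, with adjusted p from 0.0514 to 0.145. With E2 present, 4OHT against ICI called 0 of the 7 CD44 probe sets other than 217523_at (-0.19 to 0.12, adjusted p of 0.203 or more).

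In PEO1 the 7 CD44 probe sets other than 217523_at lay between -0.12 and 0.16 for 4OHT against vehicle, and 0 of them were called. For 204489_s_at the responses of the lines differed by 0.39 ± 0.09 (adjusted p = 0.0314), 1 of 2 calls among the 26 in this test, where 0.783% of all were called. Leaving out PEO4 vehicle replicate 1 or 4, PEO4 4OHT replicate 1, PEO1 vehicle replicate C or PEO1 4OHT replicate B or C ended that call (0.33 to 0.37, adjusted p from 0.0546 to 0.0975). For 212063_at the difference was 0.24 and did not pass (adjusted p = 0.178). With E2 present ALDH1A3 was the 1 probe set of 26 whose responses differed (1.4% of all), and CD44 212063_at was at 0.28 (adjusted p = 0.0957). That CD44 difference passed with array weights (0.27, adjusted p = 0.041) and without PEO4 0 h replicate 4 and ICI replicate 1 together (0.28, 0.0482). It passed too without PEO1 4OHT with E2 replicate A (0.34, 0.0323) or PEO4 4OHT with E2 replicate 1 (0.32, 0.0473).

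The probe set 217523_at, assigned to CD44, stood apart from the other 7. In PEO4 it was 6.65, 6.09, 6.22 and 6.38 with 4OHT, against 5.50, 5.55, 5.44 and 5.77 with vehicle. In PEO1 it was 9.42, 9.42, 9.38 and 9.45 with 4OHT, against 8.70, 8.41, 8.93 and 9.09 with vehicle. The 4OHT arrays lay above the vehicle arrays in both lines, by 0.77 ± 0.17 in PEO4 (adjusted p = 0.00752) and 0.64 ± 0.14 in PEO1 (adjusted p = 0.00749), which was the 1 call among 26 in PEO1 (4.21% of all). The responses differed by 0.13 (95% interval -0.32 to 0.58).

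With E2 present, 217523_at was higher with 4OHT by 0.83 ± 0.17 in PEO4 (adjusted p = 0.00236) and by 0.47 ± 0.14 in PEO1 (adjusted p = 0.0277), the 1 call of 26 in PEO1, where 9.99% of all were called. Against ICI it was higher with 4OHT by 0.79 ± 0.17 in PEO4 (adjusted p = 0.00884) and 0.56 ± 0.14 in PEO1 (adjusted p = 0.0273), and with E2 present by 0.72 ± 0.17 in PEO4 (adjusted p = 0.0126). Against ICI in PEO4 the call ended without 4OHT replicate 1 (0.69, adjusted p = 0.0579), and with E2 present without ICI with E2 replicate 2 or 4OHT with E2 replicate 3 or 4 (0.55 to 0.66, adjusted p from 0.0547 to 0.0806). In PEO1 the call with E2 ended without E2 replicate B or C or 4OHT with E2 replicate A or B (0.38 to 0.49, adjusted p from 0.0554 to 0.106), and that against ICI ended without ICI replicate A or B or 4OHT replicate B, C or D (0.45 to 0.57, adjusted p from 0.0566 to 0.132). The transcript form that 217523_at reads was not determined.

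PROM1 was lower with 4OHT than with vehicle in PEO4, at levels near the bottom of the scale. It was 4.73, 4.56, 4.40 and 4.63 with 4OHT, against 4.97, 5.13, 4.92 and 4.84 with vehicle, a change of -0.38 ± 0.10 (adjusted p = 0.0196), and these groups did not overlap. With E2 present it was 4.35, 4.54, 4.65 and 4.54 with 4OHT, against 4.89, 5.11, 4.83 and 4.65 with E2, a change of -0.35 ± 0.10 (adjusted p = 0.0331), with the groups meeting at 4.65. The first call ended without vehicle replicate 2 or 4OHT replicate 2 or 3 (-0.38 to -0.32, adjusted p from 0.0552 to 0.0946). The other call ended without E2 replicate 1, 2 or 3 or 4OHT with E2 replicate 1, 2 or 4 (-0.36 to -0.27, adjusted p from 0.0614 to 0.133). The PEO4 vehicle mean of PROM1 (4.96) was the highest of the 7 groups. The others were 4.87 with E2, 4.70 with ICI, 4.68 with ICI and E2, 4.66 at 0 h, 4.58 with 4OHT and 4.52 with 4OHT and E2. Vehicle was above 0 h by 0.30 (95% interval 0.11 to 0.50, limma adjusted p = 0.0688). That difference passed with joint quantile normalization (0.0468), array weights (0.0138), only the compared groups (0.0465) or without E2 replicate 2 (0.0469). In PEO1, where PROM1 was bright, the changes were -0.13 without E2 (adjusted p = 0.0871) and -0.11 with it (adjusted p = 0.106). With trend and robust variance both passed (adjusted p = 0.0285 and 0.0446). The change without E2 passed too with the dimmest 40% of probe sets left out (0.0427). The difference of the responses, PEO4 minus PEO1, was -0.25 without E2 (adjusted p = 0.277) and -0.24 with it (adjusted p = 0.318), and neither passed.

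**Figure D4:**
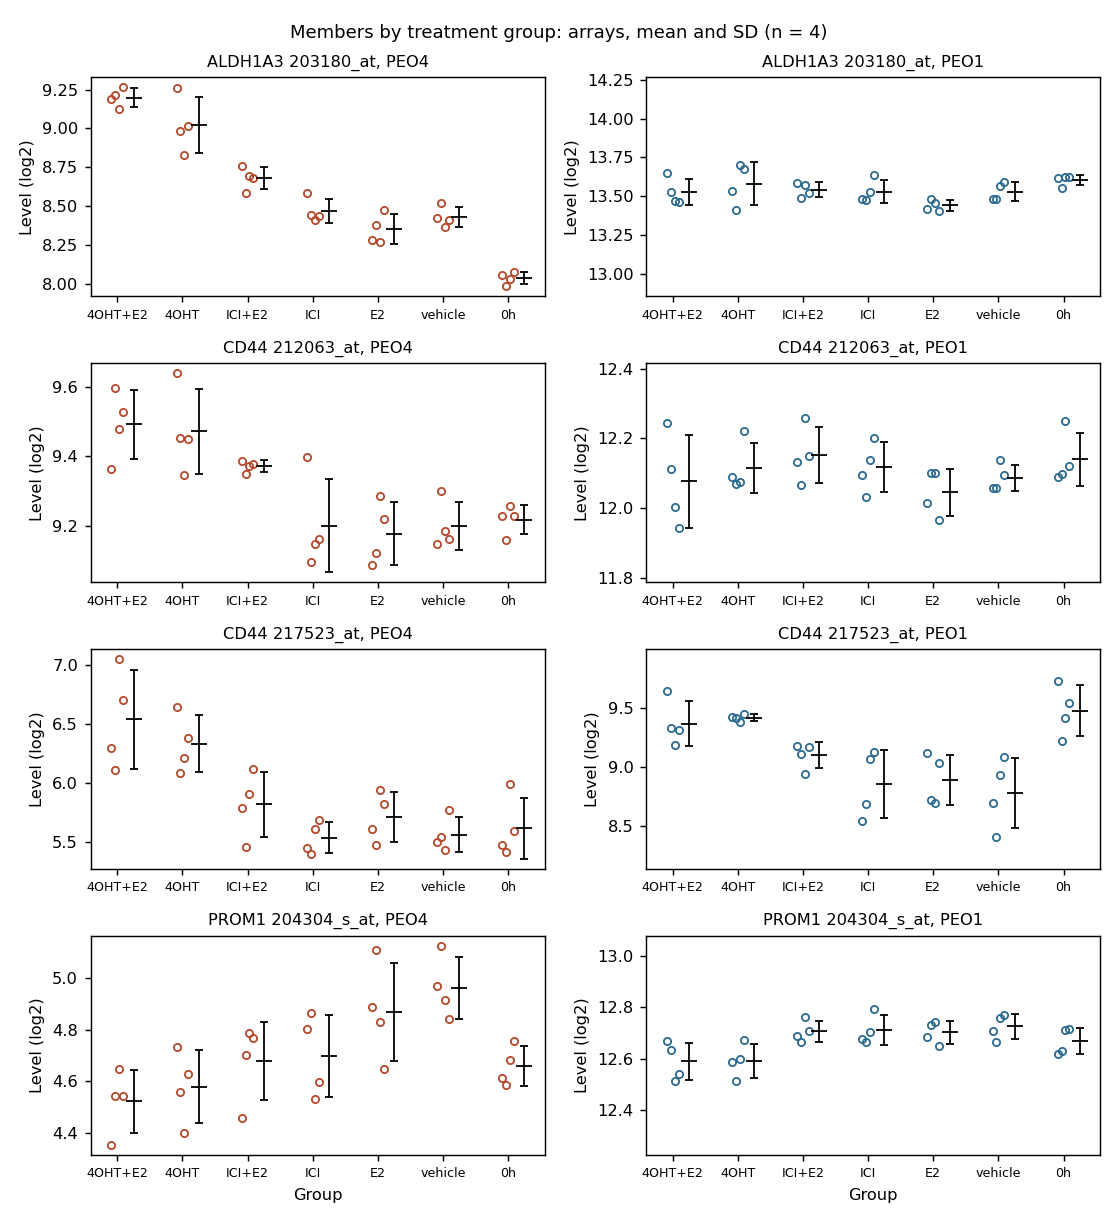
Level (deposited log2 values, y axis) of ALDH1A3, of CD44 by 2 probe sets and of PROM1 in the 7 groups (x axis) of PEO4 (left) and PEO1 (right), with 1 point for each array and the mean and SD beside it (n = 4). The y axes of a row span the same range around different centres. In PEO4, ALDH1A3 averages 9.20 and 9.02 in the 4OHT groups, against 8.35 with E2 and 8.43 with vehicle, while in PEO1 the 7 means lie between 13.44 and 13.60.

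In the main fit CD24, CRABP2, RARB and RARRES1 had no probe set called by any of the 7 comparisons among 3 h groups in either line, nor did ALDH1A1. In PEO1, for 4OHT with E2 against E2, CD24 216379_x_at passed with joint quantile normalization (0.13, adjusted p = 0.0202) and array weights (0.0482). There RARB 217020_at passed without E2 replicate D (0.0274) or 4OHT with E2 replicate A (0.0173). With array weights RARB 205080_at passed in PEO4 for 4OHT with E2 against E2 (-0.14, 0.0358) and against ICI with E2 (-0.13, 0.0387). ALDH1A1 in PEO4 averaged 4.56 with 4OHT, 4.52 with ICI, 4.58 with E2 and 4.78 with vehicle, and the changes against vehicle did not pass (adjusted p = 0.0802, 0.101 and 0.302). Its 4OHT change passed with array weights (-0.26, adjusted p = 0.00424) and with only the compared groups (-0.23, 0.0323). It passed too without PEO4 0 h replicate 4 and ICI replicate 1 together (-0.23, 0.0434). CRABP2 changed by between -0.06 and 0.15 in these comparisons, the highest being 4OHT with E2 against ICI with E2 in PEO4 (adjusted p = 0.266).

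Vehicle cells at 3 h were also set against untreated cells at 0 h, a comparison that holds the time, the handling and the ethanol together. Of the 26 probe sets, 3 were called in PEO4, all higher, where 4.89% of all were called and 3.01% were higher. In PEO1 3 were called, all lower, where 5.66% of all were called and 1.28% were lower. They belonged to ALDH1A3, CD24 and ALDH1A1 in PEO4, and to RARB and CD44 in PEO1, but the difference between the lines passed its test for ALDH1A3 and RARB alone.

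RARB was lower in PEO1 at 3 h. By 205080_at it was 6.46, 6.64, 6.56 and 6.49 with vehicle, against 7.27, 7.17, 6.91 and 7.24 at 0 h, and all vehicle arrays lay below all 0 h arrays. The change was -0.61 ± 0.08 (adjusted p = 1.91e-05). By 208530_s_at it was 5.81, 5.89, 5.82 and 6.11 with vehicle, against 6.30, 6.53, 6.36 and 6.29 at 0 h, a change of -0.46 ± 0.11 (adjusted p = 0.00937). Both calls held in each alternative, and the other 3 RARB probe sets changed by -0.08, -0.06 and 0.08 (adjusted p of 0.685 or more). The 24 PEO1 arrays of the 3 h groups lay between 6.18 and 6.72 by 205080_at, so the 0 h arrays stood above all of them.

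In PEO4 RARB by 205080_at was 6.48, 6.51, 6.42 and 6.43 with vehicle, against 6.42, 6.45, 6.43 and 6.57 at 0 h, and these groups overlapped. The change was -0.01 (95% interval -0.11 to 0.09), and the difference of the responses between PEO4 and PEO1 was 0.60 ± 0.09 (adjusted p = 2.74e-05). For 208530_s_at that difference was 0.48 and did not pass (adjusted p = 0.115). Of the 26, 2 passed this test (1.46% of all), RARB 205080_at and ALDH1A3.

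Other genes of the retinoic acid responsive list, which was chosen with earlier results of these data known, were also called in PEO1. Of its 15 measured genes, 6 were lower after 3 h of vehicle than at 0 h and 2 were higher (1.28% of all probe sets were lower among the 5.66% called), with a median of -0.12 against 0.02 over all genes. The lower ones included DHRS3, 9.24 ± 0.05 with vehicle and 9.76 ± 0.07 at 0 h (SD, n = 4, change -0.53, adjusted p = 4.2e-06), and CYP26B1, which clears retinoic acid, 7.70 ± 0.04 with vehicle and 8.18 ± 0.07 at 0 h (change -0.48, adjusted p = 6.54e-05). NRIP1, a nuclear receptor corepressor that also answers to estrogen, was 9.02 ± 0.02 with vehicle and 9.62 ± 0.03 at 0 h (change -0.60, adjusted p = 5.36e-06). CYP26A1, the classic retinoic acid hydroxylase, changed by -0.26 and passed narrowly (adjusted p = 0.0493).

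The remaining lower gene was BHLHE40 (-0.22), and the higher ones were MEIS1 (0.19) and TNFRSF10B (0.22), which with CYP26A1 were named after their values were seen. Of the 23 measured genes of the retinoid pathway list, 4 were lower in PEO1, namely DHRS3, RARB, CYP26B1 and CYP26A1, and 0 were higher, beside the same 1.28% of all. All 4 were already counted in the retinoic acid responsive list, so the counts are not separate, and both include RARB, itself a gene described here. Both lists took the brightest probe set of each gene, while the share is over all probe sets. In PEO4 the retinoid pathway list had 2 higher, ALDH1A3 and ALDH1A1, and 0 lower, where 4.89% of all were called. In PEO1 RARRES1 by 206392_s_at (-0.05, 95% interval -0.15 to 0.04) and ALDH1A3 (-0.07, -0.19 to 0.04) did not pass.

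In PEO4 the retinoic acid responsive list had 1 gene higher, ICAM1 (0.68), and 2 lower, NRIP1 (-0.22) and BHLHE40 (-0.41), with a median of -0.03, where 4.89% of all probe sets were called. DHRS3, CYP26B1 and CYP26A1 changed in PEO4 by -0.15, 0.12 and -0.04, which did not pass (adjusted p = 0.517, 0.598 and 0.77). The test of the difference between PEO4 and PEO1 was passed by CYP26B1 (0.60, adjusted p = 0.00437) and NRIP1 (0.38, adjusted p = 0.00653) beside RARB, and by ICAM1 and MEIS1.

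**Figure D5:**
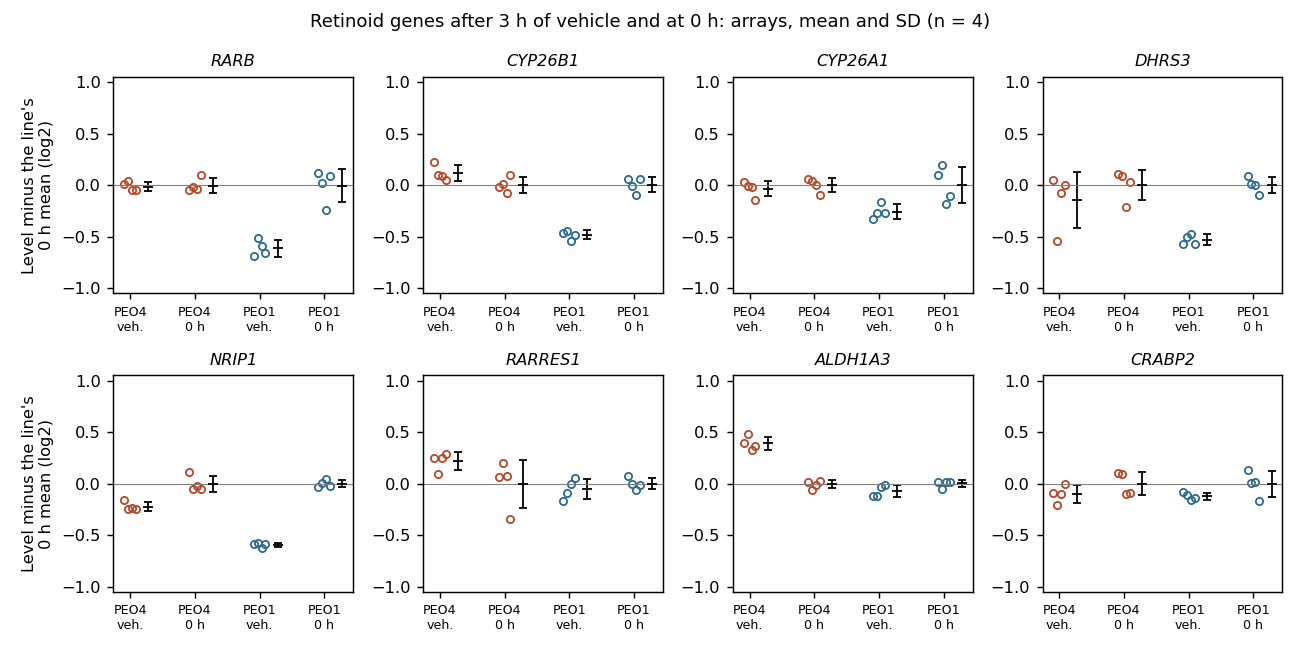
Level minus the 0 h mean of the same line (log2, y axis) for 8 genes in PEO4 vehicle, PEO4 0 h, PEO1 vehicle and PEO1 0 h arrays (x axis), with 1 point for each array and the mean and SD beside it (n = 4). RARB, CYP26B1, DHRS3 and NRIP1 lie 0.48 to 0.61 below 0 h in PEO1 vehicle, while in PEO4 ALDH1A3 lies 0.39 above.

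ALDH1A3 was higher in PEO4 at 3 h. It was 8.43, 8.52, 8.37 and 8.41 with vehicle, against 8.06, 7.99, 8.04 and 8.07 at 0 h, with no overlap. The change was 0.39 ± 0.07 (adjusted p = 0.000358), and 0.41 (adjusted p = 0.000823) without 0 h replicate 4, whose actin ratio was high. In PEO1 it changed by -0.07, and the responses differed by 0.47 ± 0.09 (adjusted p = 0.000511).

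CD24 by 209772_s_at was 9.51, 9.81, 9.60 and 9.34 in PEO4 vehicle, against 9.11, 9.16, 9.29 and 8.74 at 0 h, a change of 0.49 ± 0.12 (adjusted p = 0.0135). Its lowest array was 0 h replicate 4, without which the change was 0.38 (adjusted p = 0.0731). Without the same array the brightest CD24 probe set, 209771_x_at, passed (0.22, adjusted p = 0.00703), as did 216379_x_at (0.23, adjusted p = 0.00676); with all arrays they were at 0.16 (0.0805) and 0.17 (0.0798). Without vehicle replicate 2 the change of 209772_s_at was 0.41 (adjusted p = 0.0747). All 6 CD24 probe sets lay above 0 in this comparison in PEO4 and in PEO1, and the difference between the lines did not pass (adjusted p of 0.353 or more).

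ALDH1A1, at the bottom of the scale, was 4.71, 4.80, 4.80 and 4.82 in PEO4 vehicle, against 4.50, 4.62, 4.63 and 4.36 at 0 h, a change of 0.25 ± 0.07 (adjusted p = 0.0399). Without 0 h replicate 4 it was 0.20 (adjusted p = 0.167), and leaving out 0 h replicate 1 or vehicle replicate 2, 3 or 4 also ended the call (0.24 to 0.25, adjusted p from 0.0947 to 0.105).

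In PEO1, CD44 217523_at was 8.70, 8.41, 8.93 and 9.09 with vehicle, against 9.73, 9.22, 9.42 and 9.54 at 0 h, with no overlap. The change was -0.70 ± 0.14 (adjusted p = 0.00236), so the 4OHT level of this probe set in PEO1 (9.42 ± 0.03) was near its 0 h level (9.48 ± 0.21, SD, n = 4). In PEO4 it changed by -0.06 (95% interval -0.40 to 0.29), and the difference between the lines did not pass (0.64, adjusted p = 0.193). The other 7 CD44 probe sets changed in PEO1 by -0.15 to 0.02 and 0 were called.

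The genes whose pattern over the 14 group means, less the mean of each line, was most like that of a member were listed as a description. For ALDH1A3 they were SEMA3C (r = 0.967), GPR183 (0.954) and PCDH7 (0.952), and for CD44 by 212063_at ADORA2B (0.924), ARHGAP12 (0.914) and CCN3 (0.91). For RARB they were SAV1 (0.888), MEIS2 (0.885) and RIPK4 (0.881), and for PROM1 PRSS2 (0.903), ACTA2 (0.896) and CSF2RB (0.89). For CD24 they were NRG1 (0.916), CBFB (0.886) and ATP10A (0.884), and for ALDH1A1 UTP14A (0.925), ARNT (0.878) and GUCY1B1 (0.87). The groups share arrays of a line, and the likeness of ALDH1A3 and PCDH7 was 0.992 over the 7 PEO4 means and -0.01 over the 7 PEO1 means.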

How the data were processed

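RNA of 56 samples was measured on Affymetrix arrays with 22277 probe sets, of which 62 controls were left out. Per the submitters' processing notes, the authors' deposited log2 values were made by RMA, which corrects background, quantile-normalizes and summarises probes; array medians fell into separate ranges by line, and whether the lines were normalized apart is not given in the sources used here. Of the other 22215 probe sets, 19064 had 1 gene symbol in the platform annotation, 1043 several and 2108 none. Each line was fitted alone with limma 3.58.1 in R 4.3.3 (28 arrays, 7 groups, 21 residual degrees of freedom), and the difference of responses between lines over 56 arrays (42 degrees of freedom). P-values were adjusted by Benjamini-Hochberg over the 22215. The labels do not say that replicates were separate cultures, so p-values measure the spread between these samples, which may be technical, and the number of arrays limits precision.

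Levels between lines were taken after quantile normalization of the 56 arrays together. The brightest probe set stands for a gene with several. From each gene list, up to 4 called genes per comparison by smallest adjusted p, and up to 3 with the largest line difference each way, were to be named. Members and lists were chosen with earlier results of these data known. On simulated data, the PEO4 comparison of 4OHT with vehicle recovered 87% of changes of 0.5 and 100% of changes of 1 (log2), with 13 false calls. Alternatives were a replicate block, array weights, trend and robust variance, joint quantile normalization, the dimmest 40% of probe sets left out, 1 probe set per gene, only the compared groups, each array left out, and PEO4 0 h replicate 4 and ICI replicate 1 left out together.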

Additional observations from a re-analysis of the deposited data

Results flagged for a closer look

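Of 112 groups of 4 arrays (the main probe set of each gene in each group), 4 held an array whose gap to its nearest neighbour took up most of the range of the group by Dixon's test, where chance gives about 1 in 20. ALDH1A3 in PEO1 0 h replicate B was 13.553, below the others (13.620 to 13.624). CD44 by 212063_at in PEO1 4OHT replicate D was 12.222, above the others (12.070 to 12.091). RARB by 205080_at in PEO4 ICI replicate 4 was 6.456, above the others (6.302 to 6.325). RARRES1 by 206392_s_at in PEO4 ICI replicate 1 was 5.335, below the others (5.753 to 5.791), and this array had the actin ratio of 3.41. Within its line, that probe set had no call in any comparison with these groups.

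Treatment responses that differed between PEO4 and PEO1 in the test of the difference are given as PEO4 minus PEO1. For ALDH1A3 the difference was 0.5393 for 4OHT against vehicle, 0.7602 for 4OHT with E2 against E2, and 0.4681 for vehicle against 0 h. For CD44 by 204489_s_at it was 0.3853 for 4OHT against vehicle. For RARB by 205080_at it was 0.5995 for vehicle against 0 h.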

How the results depend on the processing

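The 29 calls were refitted under 1156 alternative values in all; 1105 stayed called, 51 did not and 0 changed sign, and 17 of the 29 calls held in each alternative run on them. The calls of ALDH1A3 and RARB held throughout. With array weights 39 pairs of a probe set and a comparison were called in PEO4, against 18, and 8 in the difference between lines, against 5. With 1 probe set per gene 1 such pair was called in PEO1, against 6, since fewer probe sets were counted. Leaving out 1 array at a time gave 14 to 22 calls in PEO4, 5 to 7 in PEO1 and 4 to 7 in the difference. With only the compared groups in the fit, adjusted p was 0.0953 for PROM1 (4OHT with E2), 0.416 for CD44 212063_at (4OHT against ICI), 0.0799 for CD44 217523_at (4OHT with E2 against ICI with E2), and 0.0701 for CD24 and 0.0799 for ALDH1A1 (vehicle against 0 h) in PEO4. For CD44 217523_at in PEO1 it was 0.0627 (4OHT with E2 against E2) and 0.0784 (4OHT against ICI).

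Replicate labels were not used to pair the arrays. With group means removed, same-label arrays in PEO4 correlated at a median of 0.076 (-0.569 to 0.53, 36 of 84 pairs above 0.1). In PEO1 the median was 0.01 (-0.383 to 0.323, 24 of 84 pairs above 0.1). Pairs with different labels had medians of -0.01 in PEO4 and 0 in PEO1. Whether arrays with the same label share an effect was not tested. With the replicate block 17 pairs of a probe set and a comparison were called in PEO4, 6 in PEO1 and 5 in the difference, and ALDH1A1 lost its call (adjusted p = 0.0505).

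Line differences moved with the scale. On deposited values they were -7.76 for PROM1, -5.10 for ALDH1A3, 0.74 for ALDH1A1, -0.71 for CD24, -2.89 for CD44, -5.84 for RARRES1, -0.079 for RARB and 2.49 for CRABP2. With each array's median subtracted, ALDH1A3 was at -5.52, CD24 at -1.13 and CRABP2 at 2.07. In 0 h arrays PROM1 was at -8.46, ALDH1A3 at -5.85, CD24 at -1.11, CD44 at -3.37, RARRES1 at -6.64 and RARB at -1.14, while ALDH1A1 turned to -0.038; the cause was not tested. Over all 28 arrays of each line PROM1 was at -8.39, ALDH1A3 at -5.27, ALDH1A1 at 0.011, CD44 at -3.26, RARRES1 at -6.41 and RARB at -0.59. As the median over probe sets, CD24 was at -1.49 and RARB at -0.12. Leaving out 1 array at a time gave -8.22 to -8.13 for PROM1, -5.45 to -5.41 for ALDH1A3, 0.18 to 0.28 for ALDH1A1, -1.02 to -0.99 for CD24, -3.36 to -3.31 for CD44, -6.33 to -6.25 for RARRES1, -0.54 to -0.48 for RARB and 1.96 to 2.03 for CRABP2. Dim probe sets (PROM1 and RARRES1 in PEO4, ALDH1A1) lie near array background, which limits how low a level can read.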

Other observations

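Other genes of the stem cell marker list moved with 4OHT in PEO4. Of 28 measured, 5 were higher after 4OHT than after vehicle, where 3.93% of all probe sets were called (MYC by 0.53, KLF4 by 0.46 and SOX9 by 0.34 beside ALDH1A3 and CD44) and 1, PROM1, was lower. In PEO4 4OHT with E2 against E2 had KLF4 (-0.46) and MYC (-0.43) lower beside PROM1, and FZD7 (0.47) higher beside ALDH1A3 and CD44, where 4.25% of all were called. There E2 against vehicle had 3 higher, KLF4 (0.967), MYC (0.965) and SOX9 (0.685), and 1 lower, FZD7 (-0.268), where 1.44% of all were called. With 4OHT and E2 together, KLF4 averaged 10.62 and MYC 11.73 in PEO4, above their vehicle means of 10.11 and 11.2. In PEO1 4OHT against vehicle had 2 higher (DCLK1 by 0.46 and KLF4 by 0.26) and 3 lower (KIT at -0.32, CXCR4 at -0.30 and MYC at -0.14), where 4.21% of all were called. E2 against vehicle in PEO1 had 3 higher, KLF4 (0.497), THY1 (0.251) and MYC (0.234), and 1 lower, FZD7 (-0.41), where 1.5% of all were called. The E2 response was higher in PEO4 than in PEO1 for MYC (by 0.731), SOX9 (0.512) and KLF4 (0.471), where 0.32% of all were called. For 4OHT with E2 against E2, PEO1 had 1 higher (ABCB1) and 5 lower (MYC, CXCR4, KLF4, SOX9 and THY1), where 9.99% of all were called. These genes were named after their values were seen. Of the 17 measured aldehyde dehydrogenase genes, 4OHT against vehicle called 1, ALDH1A3, in PEO4 (3.93% of all) and 0 in PEO1 (4.21% of all), and 4OHT with E2 against E2 called ALDH1A3 in PEO4 (4.25% of all) and, lower, ALDH5A1 (-0.28) and ALDH18A1 (-0.13) in PEO1 (9.99% of all).

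In PEO1 CYP26B1, which clears retinoic acid, also moved with hormone: E2 against vehicle gave -0.32 (adjusted p = 0.00865), ICI with E2 against E2 0.37 (adjusted p = 0.00134) and 4OHT with E2 against E2 0.53 (adjusted p = 6.4e-06), in limma's fit over all probe sets. Each of these comparisons uses the E2 arrays, so they are not independent of each other. In the same fit 4OHT against vehicle, which uses no E2 arrays, gave 0.289 for CYP26B1 in PEO1 (adjusted p = 0.0149). DHRS3 went the other way with E2 in PEO1: 0.241 against vehicle (adjusted p = 0.036) and -0.255 for ICI with E2 against E2 (adjusted p = 0.0178).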
